A study of Mus musculus with 7 samples.

Results

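The 37 genes of the mouse mitochondrial genome were followed in lipid-rich microglia sorted from the brain of old and young mice after stroke. They were all genes whose symbol starts with mt-, which gave 13 protein genes, 2 rRNA genes and 22 tRNA genes out of 50686 genes in each file. Microglia, the resident macrophages of the brain, were sorted by FACS as CD11b+ CD45low Bodipy+ cells from 4 young (3 to 4 months) and 3 old (21 to 22 months) wild-type C57BL/6 male mice. Bodipy is a dye for the neutral lipids of lipid droplets, so the gate kept the lipid-rich cells of both ages. All mice had a transient occlusion of the middle cerebral artery 4 days earlier and received no further treatment, so every library comes from an ischemic brain and the effect of ischemia itself cannot be read here. Each library pools the sorted cells of 1 mouse, and the mice are named by the codes of their labels, 14C, 18C, 23C and 29C for the young and 2posI, 3posI and 4posI for the old. In such pooled RNA, fewer cells rich in mitochondrial transcripts and less mitochondrial RNA per cell cannot be told apart. The cDNA was made with Smart-seq2, which copies polyadenylated RNA, amplifies it by PCR and does not record the strand.

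The mitochondrial genome is a small circle of DNA held in many copies per cell. Its protein genes encode subunits of the respiratory chain, the membrane complexes that pass electrons to oxygen and make ATP, while its rRNAs and tRNAs serve the ribosomes inside the organelle. Both strands are transcribed as long precursors, from which the tRNAs are cut out and so release the mRNAs and rRNAs between them. The heavy strand is the template of most genes, and the light strand encodes a single protein, the complex I subunit ND6, beside a group of tRNAs. All other respiratory chain subunits, and the proteins that copy, transcribe and process the mitochondrial genome, are encoded in the nucleus. Most mitochondrial mRNAs receive a short poly(A) tail, whereas tRNAs do not keep one, which bears on what a poly(A)-primed library can hold.

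Neighbouring genes of this genome touch or overlap, and several have near-identical copies in the nucleus, so the stretches that decide where a read was counted are shown first. The sequences are those of the GENCODE vM21 transcripts on GRCm38. The complex I gene mt-Nd4l (chrM:9877-10173, heavy strand) is shown whole because 245 of its 248 possible reads of 50 bases also occur in the nuclear pseudogene Gm10222. Capitals mark the 3 bases past the end of Gm10222 as annotated.
mt-Nd4l: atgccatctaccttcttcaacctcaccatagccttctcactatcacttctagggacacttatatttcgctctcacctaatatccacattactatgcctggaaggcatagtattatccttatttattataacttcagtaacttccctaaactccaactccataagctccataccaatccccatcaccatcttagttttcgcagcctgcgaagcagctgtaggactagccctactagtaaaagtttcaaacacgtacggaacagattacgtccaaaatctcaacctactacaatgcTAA
The last 100 bases of mt-Atp8 (chrM:7870-7969) are shown for the 43 bases, in capitals, that it shares with the start of mt-Atp6.
mt-Atp8: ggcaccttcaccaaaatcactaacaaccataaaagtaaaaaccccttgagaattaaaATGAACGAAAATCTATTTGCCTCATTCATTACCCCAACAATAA

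The light-strand gene mt-Nd6 and its neighbour mt-Nd5 run towards each other and overlap by 14 bases. The last 80 bases of each, each on its own strand, are chrM:13552-13631 for mt-Nd6 and chrM:13486-13565 for mt-Nd5, with the shared bases in capitals.
mt-Nd6: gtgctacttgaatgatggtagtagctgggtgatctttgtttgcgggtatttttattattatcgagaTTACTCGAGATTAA
mt-Nd5: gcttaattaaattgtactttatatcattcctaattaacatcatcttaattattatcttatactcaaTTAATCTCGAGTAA
The light-strand tRNA genes mt-Ts1 (chrM:6870-6938), whose last 3 bases, in capitals, are complementary to the end of mt-Co1, and mt-Te (chrM:14071-14139), which adjoins mt-Nd6 with 0 bases between them, complete the set.
mt-Ts1: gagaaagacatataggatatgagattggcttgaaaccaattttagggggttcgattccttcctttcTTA
mt-Te: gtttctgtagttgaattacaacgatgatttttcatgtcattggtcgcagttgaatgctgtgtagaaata
Because the libraries hold no strand, a read inside mt-Nd6, mt-Ts1 or mt-Te may come from the gene or from RNA of the opposite strand, and these cannot be told apart.

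Libraries held 36574083 to 53002386 expected counts, of which 683672 to 1252716 came from the 37 mitochondrial genes. All 12 microglial markers chosen for the check, Tmem119 and P2ry12 among them, were counted in every library, with a summed level of 29208 to 40182 CPM (counts scaled to the total of the library) in young and 16425 to 32125 in old mice. Old mouse 3posI alone set the lower end of that range, as the other 6 mice had 29208 CPM or more. Markers of infiltrating monocytes and macrophages (9 of 9 counted in all libraries) summed to 188 to 482 CPM in young mice, 452 in 2posI and 245 in 4posI, but to 2790 in 3posI. Those of border-associated macrophages (5 of 5) were also highest in 3posI, at 529.9 CPM against 48.5 to 231 in the other mice. Erythroid markers (5 of 5) summed to 175 to 324 CPM in young mice, 204 in 3posI and 188 in 4posI, but to 744 in 2posI. Neuronal markers stayed at 1.24 to 4.19 CPM. The summed levels of the other 5 lists (neutrophils, lymphocytes, astrocytes, oligodendrocytes, endothelial cells with pericytes) also overlapped between ages, and no marker of any list was at 0 in all libraries. Old mouse 2posI held the smallest library. The part of these markers in the results was not tested.

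Mitochondrial genes made up 2.18% (14C), 2.56% (18C), 2.12% (23C) and 2.47% (29C) of the counts in young mice. In old mice the share was 2.95% in 2posI, 1.59% in 3posI and 1.76% in 4posI. The ages overlapped through a single animal, as 2posI lay above all 4 young mice and the other 2 old mice below all of them. The mean of the young was 2.33% ± 0.217 (SD, n = 4) and that of the old 2.10% ± 0.737 (SD, n = 3), a ratio of 0.900. As a share of TPM, which divides by gene length, it was 4.47% ± 0.491 (SD, n = 4) and 4.17% ± 1.68 (SD, n = 3), with the same animals at the extremes. No test was made on a sum over these genes.

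The rRNAs and the mRNAs were also read apart. Mitochondrial rRNA took 0.659%, 0.857%, 0.826% and 0.624% of the counts in young mice, and 0.589%, 0.492% and 0.533% in old mice. Every old mouse therefore lay below every young one, with a ratio of the means of 0.725. The 13 protein genes took 1.51%, 1.70%, 1.29% and 1.84% in young mice and 2.34%, 1.09% and 1.22% in old mice. Their ages overlapped through 2posI alone, which lay above all young mice, while 3posI and 4posI lay below all of them. The ratio of mRNA to rRNA counts was 1.56 to 2.94 in the young and 2.22 to 3.97 in the old mice, again overlapping.

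Of the 37 genes, 28 had more than 10 expected counts in some library and were compared between ages among all 17587 genes tested. These were all 13 protein genes, both rRNA genes and 13 tRNA genes, while the other 9 tRNA genes had 0 to 9 counts per library. None of the 28 passed an adjusted p of 0.05 for its level (quasi-likelihood test of edgeR, adjusted over all genes tested by Benjamini-Hochberg), where 0.802% of all genes did. An unadjusted p under 0.05 was found for 2 of the 28, mt-Nd6 and mt-Nd4l, against 18.9% of all genes. limma-voom and DESeq2 each called 1 of the 28, mt-Nd4l, where they called 0.819% and 7.9% of all genes. The log2 ratio, here the fitted log2 fold change of old against young mice, was above 0 for 13 and below 0 for 15, with a median of -0.00 beside -0.01 over all genes.

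**Figure D1:**
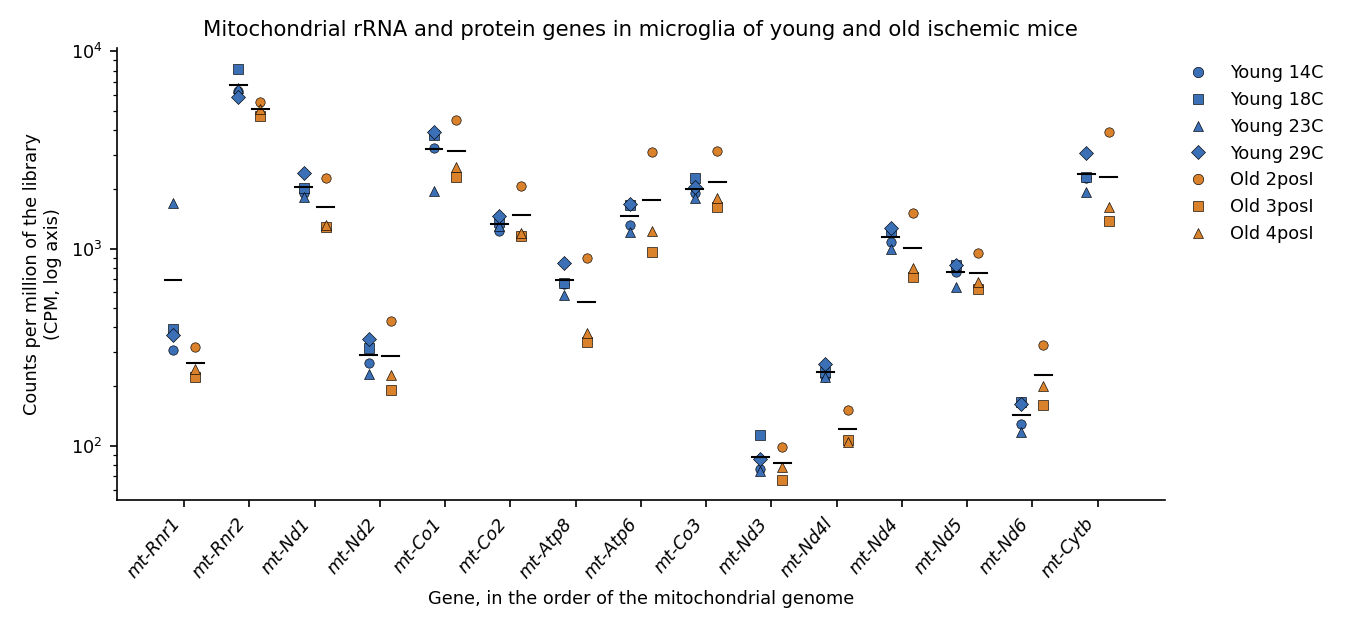
Level of the 2 rRNA and 13 protein genes in each mouse, in CPM on a log axis, in the order of the genes on the mitochondrial genome. Each point is 1 mouse (4 young, 3 old), black bars are the group means, and old mouse 2posI has the highest level of 10 of the 13 protein genes while 3posI has the lowest of 10.

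Old mouse 2posI had the highest CPM of 10 of the 13 protein genes and 3posI the lowest of 10, while 4posI lay close to 3posI, so that the spread of the old group was mainly that of 2posI from the other 2 old mice. Without 2posI, 12 of the 13 protein genes were lower in old mice (median log2 ratio -0.43), against 9 of 13 with all mice. Without 3posI, 10 of the 13 were higher (median 0.15), and without 4posI 9 of 13 (median 0.14). Leaving out young mouse 18C or 29C left 8 of 13 higher (medians 0.02 and 0.12). The direction of most protein genes thus depended on which mice were counted, and 0 of the 28 genes passed in any of these fits.

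The 2 rRNA genes encode the RNAs of the small (mt-Rnr1, 12S, chrM:70-1024) and large (mt-Rnr2, 16S, chrM:1094-2675) subunits of the mitochondrial ribosome. The 16S gene mt-Rnr2 was the most counted of the 37, with 6282, 8175, 6549 and 5877 CPM in young mice and 5570, 4692 and 5089 CPM in old mice. All 3 old values lay below all 4 young ones, and the log2 ratio was -0.37 (SE 0.19, adjusted p = 0.331, edgeR). For the 12S gene mt-Rnr1 the levels were 307, 391, 1710 and 365 CPM in young mice and 317, 223 and 244 CPM in old mice. Young mouse 23C stood far above the other 6 mice. Its mt-Rnr1 counts were 26.1% of its mt-Rnr2 counts, where the other mice had 4.76% to 6.20%. The fitted log2 ratio of mt-Rnr1, -1.38 (SE 0.61, adjusted p = 0.264, edgeR), was -0.42 without 23C. As a share of the mitochondrial counts mt-Rnr1 was 1.41% to 8.06% in the young and 1.08% to 1.402% in the old mice, with a log2 ratio of -1.28 (SE 0.53, adjusted p = 0.368, edgeR), or -0.19 without 23C. In that mouse mt-Co1 was also low, at 1970 CPM against 3231 to 3904 in the other young mice.

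Among the complex I genes, which encode the membrane core of NADH dehydrogenase, mt-Nd1 (chrM:2751-3707) had 1923, 2031, 1828 and 2425 CPM in young and 2276, 1281 and 1313 CPM in old mice. Its log2 ratio was -0.32 (SE 0.26, adjusted p = 0.536, edgeR), and of the old mice only 2posI lay within the young range. The levels of mt-Nd2 (230.5 to 349 CPM in young, 192 to 429.9 in old), mt-Nd3 (74.7 to 113 and 67.4 to 98.6), mt-Nd4 (990.5 to 1279 and 718 to 1520) and mt-Nd5 (637 to 826 and 621 to 949) overlapped between ages. Their log2 ratios were -0.00 for mt-Nd2 (SE 0.29), -0.08 for mt-Nd3 (SE 0.19), -0.15 for mt-Nd4 (SE 0.28) and -0.00 for mt-Nd5 (SE 0.20). None of these 4 differences exceeded its standard error with all mice. Without 2posI the log2 ratios were -0.66 (SE 0.20) for mt-Nd1, -0.46 (SE 0.20) for mt-Nd2 and -0.59 (SE 0.18) for mt-Nd4, none of which passed an adjusted p of 0.05. The remaining pair, mt-Nd4l and mt-Nd6, is described below.

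The genes of the other complexes overlapped between ages too. Cytochrome b of complex III, mt-Cytb (chrM:14145-15288), had 1932 to 3049 CPM in the young and 1377 to 3914 CPM in the old mice, with a log2 ratio of -0.03 (SE 0.38). The complex IV genes encode the catalytic core of cytochrome c oxidase. In young and old mice mt-Co1 had 1970 to 3904 and 2320 to 4493 CPM, mt-Co2 1229 to 1466 and 1158 to 2070 CPM, and mt-Co3 1811 to 2287 and 1625 to 3127 CPM, with log2 ratios of -0.02 for mt-Co1 (SE 0.32), 0.16 for mt-Co2 (SE 0.24) and 0.14 for mt-Co3 (SE 0.25). Of the ATP synthase (complex V) genes, mt-Atp6 was at 1209 to 1680 CPM in the young and 960 to 3104 CPM in the old mice and mt-Atp8 at 580 to 847 and 338 to 893 CPM. Their log2 ratios were 0.29 (SE 0.39) and -0.34 (SE 0.35). For each of these genes except mt-Co1, the 3 old mice spanned more than the whole young range. The signs of mt-Co2, mt-Co3 and mt-Atp6 turned without 2posI, to -0.19, -0.23 and -0.43, and the log2 ratios of mt-Cytb, mt-Atp8 and mt-Co1 were then -0.68, -0.96 and -0.40. With the counts of the nuclear copies added, described below, mt-Atp6 was at -0.07 (SE 0.33) and mt-Co1 at 0.12 (SE 0.32), so that both changed sign.

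Levels of different genes can be set side by side only per length, as TPM. In young mice mt-Atp8 (6460 ± 955, SD, n = 4) and mt-Rnr2 (6377 ± 1002, SD, n = 4) led and their ranges met, followed after a gap by mt-Co3 at 3981 ± 403 (SD, n = 4). From mt-Co3 down to mt-Co2 at 3065 ± 199 (SD, n = 4), with mt-Atp6, mt-Nd1, mt-Cytb and mt-Co1 between them, each gene's range met that of the next. The place of mt-Atp6 (3372 ± 531, SD, n = 4) rests on how RSEM divided its reads, since with the TPM of its near-identical nuclear copy added it was at 7570 ± 1125 (SD, n = 4) in young mice, above mt-Atp8 and mt-Rnr2 with ranges that met. The same holds for mt-Co1. With its copies added it was at 5235 ± 1329 (SD, n = 4) in young mice, above mt-Co3, and its range met those of mt-Co3 and mt-Rnr2. Without the copies, another gap separated mt-Co2 from mt-Nd4l at 1383 ± 79.5 (SD, n = 4), and 1 more lay between mt-Nd5 and mt-Nd6. The last in order was mt-Nd2 at 424 ± 71.5 (SD, n = 4). In old mice the order without the copies was much the same, with mt-Atp8 at 4717 ± 2576 (SD, n = 3) and mt-Rnr2 at 4608 ± 306 (SD, n = 3) ahead. With the copies added, mt-Atp6 at 6704 ± 3222 (SD, n = 3) and mt-Co1 at 5977 ± 2036 (SD, n = 3) led in old mice. Without the copies, the genes that moved by more than 1 place were mt-Nd1, from place 5 to 8, mt-Co2, from 8 to 5, mt-Nd6, from 13 to 11, and mt-Rnr1, from 11 to 13. TPM of tRNA genes are not compared, because RSEM takes most of a read length off genes of 59 to 75 bases and so leaves effective lengths so short that few reads give a high TPM.

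The make-up of the mitochondrial transcripts was then compared, by giving each gene as a percent of the counts of all 37 genes. In this measure the total cancels, and with it part of the gap between 2posI and the other old mice. A gap remained for some of the most counted genes. In 2posI, 3posI and 4posI mt-Rnr2 took 18.9%, 29.5% and 28.9%, mt-Atp6 10.5%, 6.03% and 6.95%, and mt-Cytb 13.3%, 8.65% and 9.20%. Again 0 of the 28 genes passed an adjusted p of 0.05 (edgeR, with the summed mitochondrial counts as library size), where 0.267% of all genes tested did. For 6 of 28 the unadjusted p was under 0.05, namely mt-Rnr1, mt-Nd4l, mt-Nd6, mt-Ts1, mt-Te and mt-Ta, against 11.5% of all genes. The 6 became 3 with the protein genes as denominator, and 3 with rRNA and mt-Co1 left out of the denominator. It was 2 without the young mouse that stood out for mt-Rnr1, 4 or 5 with any other mouse left out, and 6 with limma-voom. The number of such genes thus depended on the denominator and on the mice kept. Ages that did not overlap, old higher, were found for 7 of the 28 against 5.67% of all genes, and old lower for 3 against 1.88%. For the level these counts were 1 and 2 of 28, against 9.25% and 8.5%. The scale of the share fit moved the median log2 ratio of all genes to 0.22, from -0.01 for the level, so only ratios within the mitochondrial genome are read from it. In nuclear genes set over the mitochondrial total the gap of 2posI remains, while part of it cancels in the 28. The percents of all genes in the share fit are thus not a like background for the 28.

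**Figure D2:**
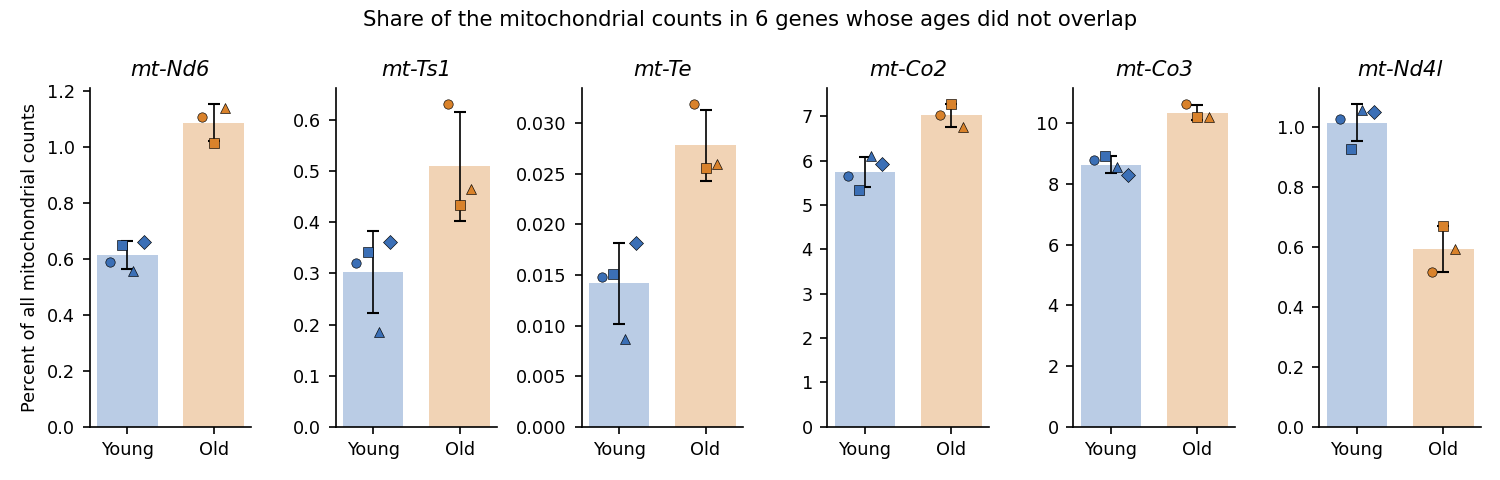
Percent of all mitochondrial counts taken by 6 genes, with bars for the group mean, error bars for the SD and 1 point per mouse (4 young, 3 old, the same symbols as in the plot of levels). All 3 old mice lie above all 4 young mice for mt-Nd6, mt-Ts1, mt-Te, mt-Co2 and mt-Co3, and below them for mt-Nd4l. The 6 are a selection. Of the genes past the filter, the shares of mt-Ta and mt-Tc were also higher in every old mouse. Those of mt-Rnr1 and mt-Tm were lower in every old mouse.

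The light-strand protein gene mt-Nd6 (chrM:13552-14070) took 0.590%, 0.650%, 0.555% and 0.661% of the mitochondrial counts in young mice and 1.11%, 1.01% and 1.14% in old mice. The gap between the ages, from 0.661% to 1.01%, was wider than the range within either. Its young mean was 0.614% ± 0.0503 (SD, n = 4) and its old mean 1.09% ± 0.0659 (SD, n = 3), a log2 ratio of 0.82 (SE 0.27, adjusted p = 0.211, edgeR). Over the alternatives this value stayed between 0.73 and 0.87, and the adjusted p between 0.0280, without 2posI, and 0.593. As a level, mt-Nd6 was 128, 167, 118 and 164 CPM in young and 326, 161 and 201 CPM in old mice, so 3posI lay within the young range. The log2 ratio of the level was 0.69 (SE 0.25, adjusted p = 0.195, edgeR), and it was 0.32 when 2posI was left out. No 50-base read of mt-Nd6 occurs in any other annotated transcript, so its count was not divided with a copy.

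The counts of mt-Nd6 were also set against those of its neighbours. These ratios reuse the same mt-Nd6 counts, so they are not separate support for its higher share. Counts of mt-Nd6 were 16.9% to 20.2% of those of mt-Nd5, which it faces on the opposite strand, in young mice and 25.9% to 34.4% in old mice. Against mt-Cytb, the heavy-strand gene on its other side, they were 5.36% to 7.26% in the young and 8.33% to 12.4% in the old mice. The tRNA gene mt-Te lies between mt-Nd6 and mt-Cytb on the light strand. Its counts were 1.55% to 2.74% of those of mt-Nd6 in young and 2.28% to 2.88% in old mice, which overlapped, but 0.0947% to 0.168% of those of mt-Cytb in young and 0.240% to 0.296% in old mice.

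Read across the genome, a higher share in old mice was more frequent among light-strand genes than among heavy-strand ones. The strand here is that of the gene, since the libraries do not record the strand of a read. Of the 9 genes encoded there (mt-Nd6 and the tRNA genes mt-Tq, mt-Ta, mt-Tn, mt-Tc, mt-Ty, mt-Ts1, mt-Te and mt-Tp), all were counted above the filter, 8 had a higher share in old mice and mt-Tp a lower one, with a median log2 ratio of 0.75. Of the 19 heavy-strand genes past the filter 10 were higher and 9 lower, with a median of 0.02. Ages did not overlap, old higher, in 5 of the 9 light-strand and 2 of the 19 heavy-strand genes, beside 5.67% of all genes. That percent is not a like background, for the reason given with the shares. For the level these counts were 1 of the 9 and 0 of the 19. The sum of the 9 genes was 0.968%, 1.04%, 0.764% and 1.07% of the mitochondrial counts in young mice and 1.82%, 1.53% and 1.66% in old mice. As a level the 9 genes summed to 162 to 266 CPM in the young and 243 to 537 CPM in the old mice, and these ranges overlapped. Counts at the light-strand genes were unequal, since mt-Nd6 and mt-Ts1 held nearly all of them, and they may come from RNA of either strand. The grouping by strand was looked at after the values were seen, and it was given no test.

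**Figure D3:**
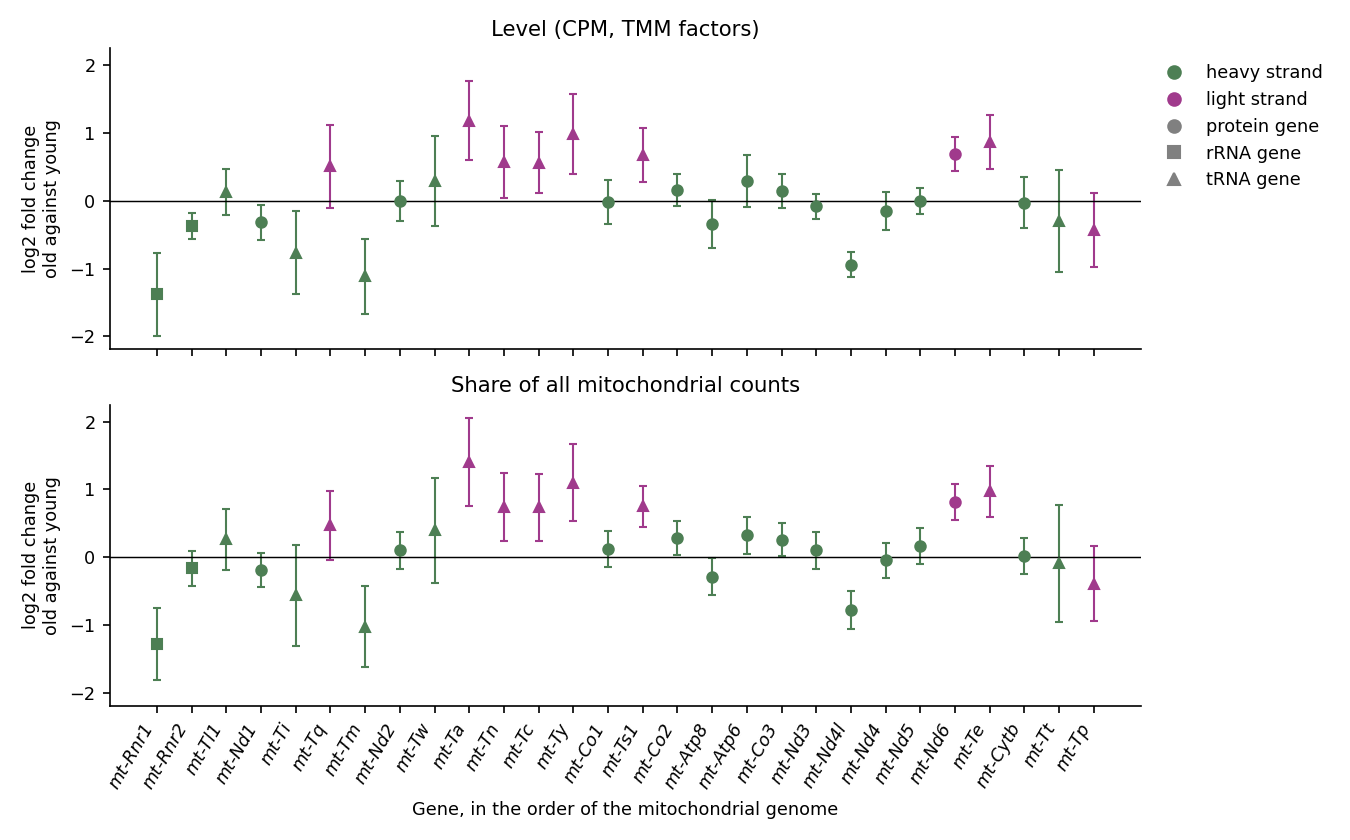
Fitted log2 ratio of old to young mice with its standard error (edgeR, 3 old and 4 young mice) for the 28 genes past the filter, in genome order, for the level (top) and for the share of all mitochondrial counts (bottom). Colour gives the strand and marker shape the kind of gene, and 8 of the 9 light-strand genes lie above 0 in both panels.

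The 22 tRNA genes together took 0.227% to 0.432% of the mitochondrial counts in young and 0.533% to 0.734% in old mice, with no overlap. Most of these counts lay at mt-Ts1, a serine tRNA gene, where a read may come from the tRNA or from RNA of the opposite strand. The gene mt-Ts1 had 69.6, 87.6, 39.3 and 89.6 CPM in young mice and 186, 69.0 and 82.0 CPM in old mice. As a share it took 0.320%, 0.342%, 0.185% and 0.363% in young and 0.631%, 0.433% and 0.465% in old mice, a log2 ratio of 0.75 (SE 0.30, adjusted p = 0.345, edgeR). As a level its log2 ratio was 0.68 (SE 0.39, adjusted p = 0.388, edgeR), and the ages overlapped. Without 2posI the level ratio of mt-Ts1 was 0.07 (SE 0.31), since 3posI and 4posI lay within the young range, and that of its share was 0.57 (SE 0.26). Next came mt-Te, a glutamic acid tRNA, with 97 to 227 counts in young and 175 to 343 in old mice, whose share had a log2 ratio of 0.97 (SE 0.38, adjusted p = 0.321, edgeR). The genes mt-Tq (34 to 192 counts per library), mt-Tn (26 to 133) and mt-Tl1 (48 to 104) followed, for glutamine, asparagine and a leucine tRNA. Their shares overlapped between ages, with log2 ratios of 0.47 (SE 0.51), 0.75 (SE 0.50) and 0.27 (SE 0.45). Summed over strands, the 8 light-strand tRNA genes took 0.209% to 0.413% in the young and 0.514% to 0.717% in the old mice, while the 14 heavy-strand ones took 0.0143% to 0.0184% and 0.0167% to 0.0187%. Without mt-Ts1 the other light-strand tRNA genes took 0.0242% to 0.0592% in the young and 0.0589% to 0.0861% in the old mice, which overlapped through 14C at 0.0592% and 4posI at 0.0589%. In young mouse 23C the light-strand tRNAs were at their lowest. Without that mouse the median log2 ratio of the 9 light-strand shares was 0.58, and without 2posI it was 0.78 with 7 of 9 higher.

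The heavy-strand protein genes with a share higher in every old mouse were subunits of cytochrome c oxidase. The subunit 2 gene mt-Co2 (chrM:7013-7696) took 5.65%, 5.34%, 6.11% and 5.93% in young and 7.03%, 7.27% and 6.77% in old mice, and the subunit 3 gene mt-Co3 (chrM:8607-9390) took 8.78%, 8.92%, 8.54% and 8.28% in young and 10.6%, 10.2% and 10.2% in old mice. The margins were small. Their log2 ratios were 0.29 (SE 0.25, adjusted p = 0.715, edgeR) and 0.26 (SE 0.25, adjusted p = 0.738, edgeR). The share of mt-Co1 overlapped between ages (9.29% to 15.8% and 14.6% to 15.3%), but with its nuclear copies added it was 10.2% to 16.6% in young mice and 17.2% to 18.1% in old ones, with a log2 ratio of 0.25 (SE 0.26, adjusted p = 0.769, edgeR). The 3 complex IV genes together took 23.9% to 30.0% in the young and 31.6% to 32.9% in the old mice. The 7 complex I genes took 19.1% to 21.8% and 19.3% to 19.8%, which overlapped.

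The only protein gene whose level did not overlap between ages was mt-Nd4l, a small complex I subunit. It had 224, 237, 224 and 259 CPM in young mice and 152, 107 and 104 CPM in old mice. The young mice were close to each other and the old mice about 1 log2 unit below. The log2 ratio was -0.94 (SE 0.18, adjusted p = 0.0560, edgeR), and it passed with limma-voom (adjusted p = 0.0487), DESeq2 (adjusted p = 0.000193) and 4 further alternatives. Over all alternatives the log2 ratio lay between -1.16 and -0.54 and the adjusted p between 0.000193 and 0.265, the last with the nuclear copy added. Its share averaged 1.01% ± 0.0607 (SD, n = 4) in young mice, 0.593% ± 0.0768 (SD, n = 3) in old mice, and did not pass either, with a log2 ratio of -0.78 (SE 0.27, adjusted p = 0.268, edgeR).

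This gene cannot be read apart from its nuclear copy. The pseudogene Gm10222 (chr1:24612407-24612700, minus strand) holds the first 294 of its 297 bases without a mismatch, so that the expected counts of both are RSEM's division of the same reads. Gm10222 was given 1.24, 0, 0.273 and 0.0543 CPM in young mice and 76.9, 11.2 and 29.2 CPM in old mice. Every old mouse thus had less mt-Nd4l and more Gm10222 than any young mouse, and the copy took up to 0.551% of the counts of the pair in young and 9.52% to 33.6% in old mice. When the counts of the pair were summed, the values were 225, 237, 224 and 259 CPM in young and 229, 118 and 134 CPM in old mice, and 2posI lay within the young range. The log2 ratio of the sum was -0.54 (SE 0.24, adjusted p = 0.265, edgeR). As a share of the mitochondrial counts with all copies added, the pair was still lower in every old mouse, at 0.844% to 0.962% in the young and 0.665% to 0.699% in the old mice, with a log2 ratio of -0.43 (SE 0.27, adjusted p = 0.586, edgeR).

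**Figure D4:**
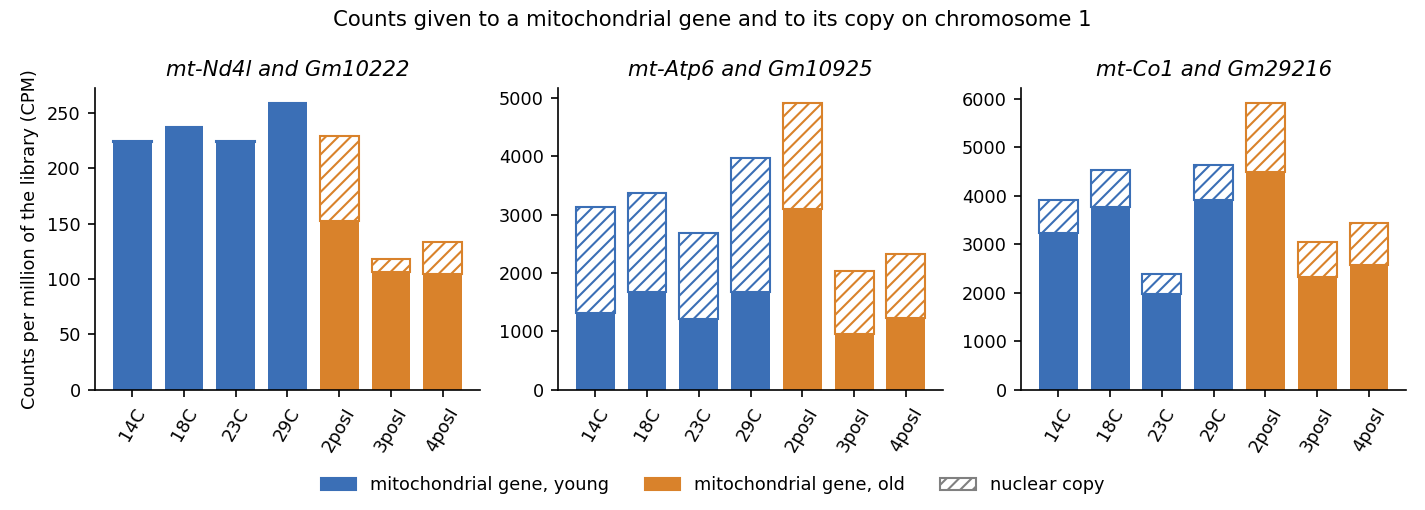
CPM given to mt-Nd4l, mt-Atp6 and mt-Co1 (filled) and to the near-identical nuclear copy of each on chromosome 1 (hatched), stacked, for each of the 4 young and 3 old mice. For mt-Nd4l the copy has 0 to 1.24 CPM in the young and 11.2 to 76.9 CPM in the old mice.

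Annotated copies of this kind touch 9 of the 37 genes. In the GENCODE vM21 transcripts 11 nuclear pseudogenes matched a mitochondrial gene with at least 95% identity over at least 200 bases. Of these, 7 lie side by side on chromosome 1 (24611535 to 24616197), in the order of mt-Co1, mt-Co2, mt-Atp6, mt-Co3, mt-Nd3, mt-Nd4l and mt-Nd4 read on the minus strand, and match at 99.7% to 100%. Of the possible 50-base reads, 100% of those of mt-Co2, 99.9% of mt-Co3, 99.5% of mt-Atp6, 98.8% of mt-Nd4l, 98.0% of mt-Nd3, 62.2% of mt-Nd4 and 51.1% of mt-Co1 also occur in a nuclear transcript. For mt-Nd2, mt-Nd5 and mt-Rnr2 it was 8.19%, 7.61% and 1.04%, and for the 5 genes mt-Nd1, mt-Atp8, mt-Nd6, mt-Cytb and mt-Rnr1 and all 22 tRNA genes 0%. Values of the first 7 genes are therefore uncertain between the genomes. In the mitochondrial genome mt-Ts1, mt-Td, mt-Tk, mt-Atp8, mt-Tg and mt-Tr lie between genes of the block on chromosome 1. Nuclear sequence between its pseudogenes was not searched, so 0% for these genes holds for annotated transcripts only.

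The division was uneven. For mt-Atp6 its copy Gm10925 (chr1:24613974-24614651) was given 50.4% to 58.1% of the counts of the pair in young and 36.9% to 52.7% in old mice, and for mt-Co1 the copy Gm29216 (chr1:24615706-24616197) 15.6% to 17.4% in the young and 23.9% to 24.9% in the old mice. The shares of Gm29216 did not overlap between ages. For mt-Co2, mt-Co3, mt-Nd3 and mt-Nd4 the copies on chromosome 1 took at most 1.24%, 10.2%, 19.2% and 1.81% in any mouse. All 11 copies together held 8.84% to 11.2% of the summed counts in young and 10.1% to 10.2% in old mice, and with them the mitochondrial share of the library was 2.33% to 2.81% in young mice and 3.28%, 1.77% and 1.96% in old mice. With the copies added, 2 of 28 genes had an unadjusted p under 0.05 for the level (mt-Rnr1 and mt-Nd6, against 18.9% of all genes) and 5 for the share (mt-Rnr1, mt-Nd6, mt-Ts1, mt-Te and mt-Ta, against 11.3%). The 11.3% is not a like background, for the reason given with the shares. The log2 ratio of the share of mt-Nd6 was then 0.82 (SE 0.27, adjusted p = 0.214, edgeR).

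Overlapping genes on the same strand were also compared. Counts of mt-Atp8 were 40.3% to 50.4% of those of mt-Atp6 in young and 28.8% to 35.2% in old mice. With Gm10925 added to mt-Atp6 they were 20.0% to 21.6% and 16.2% to 18.2%, lower in all old mice in either case. Counts of mt-Nd4l were 19.6% to 22.6% of those of mt-Nd4 in young and 10.0% to 14.9% in old mice, and with the copies added 19.5% to 22.3% and 15.1% to 16.8%. Both are pairs whose open reading frames share a mature mRNA.

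Finally, nuclear genes that serve the mitochondrial genome or encode partners of its proteins were read from the same fit of the level. In 9 lists of such genes 0 passed an adjusted p of 0.05 with edgeR or limma-voom, and DESeq2 called 8 of the 135 genes past the filter, or 5.93% beside 7.9% of all genes. An unadjusted p under 0.05 was found higher in old mice for 10.1% and lower for 8.78% of all genes tested. These lists are described by counts and medians, without a test of the list.

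Nuclear subunits of the respiratory chain were mostly higher in old mice. The genes named in each list are those with the smallest p. For complex I, 32 of 34 genes were higher, with a median log2 ratio of 0.34, and 21 had an unadjusted p under 0.05, all higher. The 2 with the smallest p were Ndufs6 (48.6 to 56.4 CPM in young, 62.5 to 73.7 in old, log2 ratio 0.43, SE 0.13, adjusted p = 0.133, edgeR) and Ndufs5 (55.6 to 72.2 and 77.8 to 88.3 CPM, 0.46, SE 0.14, adjusted p = 0.140, edgeR), both accessory subunits. All 4 subunits of complex II, which the nucleus encodes alone, were higher (median 0.20), among them the iron-sulfur subunit Sdhb (0.33, SE 0.15) and the membrane anchor Sdhd (0.29, SE 0.14). In complex III 9 of 9 were higher (median 0.26, 3 with an unadjusted p under 0.05), among them Uqcrb (0.39, SE 0.14) and Uqcrc2 (0.26, SE 0.10), and in complex IV 8 of 10 (median 0.22, 3), among them Cox5b (0.56, SE 0.14) and Cox7a2 (0.39, SE 0.12). In complex V all 17 were higher (median 0.28, 5), among them Atp5g1 (0.54, SE 0.18), of the membrane rotor, and Atp5l (0.46, SE 0.16).

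**Figure D5:**
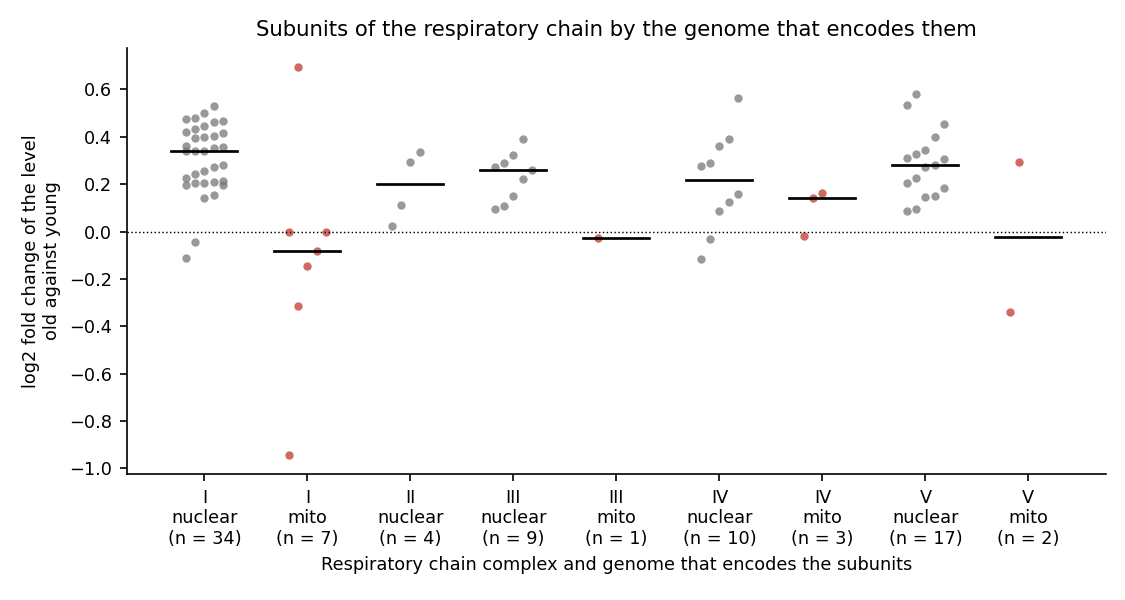
Fitted log2 ratio of the level, old to young mice (edgeR, 3 and 4 mice), for each subunit of the respiratory chain, by complex and by the genome that encodes it. Each point is 1 gene and black bars are medians, which are 0.20 to 0.34 for the nuclear subunits and -0.08 to 0.14 for the mitochondrial ones.

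The mitochondrial subunits of the same complexes had medians of -0.08 (complex I, 7 genes, 1 higher), -0.03 (complex III, 1 gene), 0.14 (complex IV, 3 genes, 2 higher) and -0.02 (complex V, 2 genes, 1 higher). With all mice, the nuclear median was thus above the mitochondrial one in each of the 4 complexes that hold both. Without 3posI, the complex IV genes mt-Co1, mt-Co2 and mt-Co3 were at 0.15, 0.29 and 0.30. The nuclear complex IV median of 0.22 is from the fit with all mice, so it is not a like value for these. In the nuclear subunits together 70 of 74 were higher, which became 67 without 3posI and 70 without 2posI, with medians of 0.23 in both. Without 3posI the median of the 13 mitochondrial protein genes was 0.15, and without 2posI -0.43, so the gap between the 2 sets of subunits changed with the old mouse left out. Over all genes tested 8581 of 17587 were higher, with a median of -0.01. The difference between the 2 sets of subunits was not tested.

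The genes that copy the mitochondrial genome leaned the other way. Of 13 genes for replication and packaging 12 were lower (median -0.14), 2 of them with an unadjusted p under 0.05. Polg, the catalytic subunit of the mitochondrial DNA polymerase, had 54.3, 57.5, 49.4 and 48.4 CPM in young and 34.97, 34.6 and 41.8 CPM in old mice, a log2 ratio of -0.48 (SE 0.11, adjusted p = 0.0765, edgeR). The helicase gene Twnk had 9.09, 11.1, 7.72 and 5.94 CPM in young and 4.18, 3.63 and 4.70 CPM in old mice, or 8.47 ± 2.19 (SD, n = 4) and 4.17 ± 0.535 (SD, n = 3), with an adjusted p of 0.0814 (edgeR). Neither gene overlapped between ages, as in 8.5% of all genes with old lower, and DESeq2 called both. Without 3posI 8 of the 13 were lower, with a median of -0.02.

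In the list of mitochondrial transcription 6 of 9 genes were higher (median 0.03). Its smallest p belonged to the polymerase gene Polrmt, which had 21.3, 21.4, 22.7 and 16.01 CPM in young and 8.89, 13.5 and 15.7 CPM in old mice, with a log2 ratio of -0.67 (SE 0.20, adjusted p = 0.134, edgeR), followed by the elongation factor Tefm (0.17, SE 0.19). Among the genes that process, bind and degrade mitochondrial RNA 21 of 30 were lower (median -0.20), 6 had an unadjusted p under 0.05 and 4 of these were lower. The smallest p were those of Ptcd1, a pentatricopeptide repeat protein (-0.46, SE 0.12, adjusted p = 0.111, edgeR), and Fastk, the founder of a family of mitochondrial RNA-binding proteins, with 38.4 to 44.4 CPM in the young and 21.5 to 34.2 CPM in the old mice (-0.50, SE 0.16, adjusted p = 0.159, edgeR). Of 9 regulators of mitochondrial biogenesis 7 were lower (median -0.26), and 5 had an unadjusted p under 0.05, 3 of them lower. Gabpb1, a subunit of the nuclear respiratory factor GABP, was lower (-0.44, SE 0.12, adjusted p = 0.112, edgeR) and the transcription factor gene Yy1 higher (0.46, SE 0.13, adjusted p = 0.133, edgeR), and DESeq2 called both. Without 2posI the medians of these last 3 lists were 0.17, -0.10 and -0.10.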

How the data were processed

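RNA of Bodipy+ microglia, 1 library per mouse (4 young, 3 old), was amplified with Smart-seq2 and sequenced. Per the labels and the study's methods, the authors trimmed reads with skewer, checked them with FastQC 0.11.5, aligned them to GRCm38 with STAR and estimated expected counts and TPM per gene with RSEM on GENCODE m15 (no version of either is given in the sources read here). The deposited expected counts are estimates, of which 66.2% of those above 0 were whole within 0.001, because RSEM divides reads that fit several genes. The deposited TPM are scaled by the authors for gene length and library.

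Here expected counts were rounded, 18173 genes with more than 10 counts in some library were kept and 586 genes on X and Y were removed, which left 17587 with the mitochondrial genes retained. Levels were tested with edgeR 4.0.16 (TMM factors 0.958 to 1.06, quasi-likelihood test, Benjamini-Hochberg adjustment) in R 4.3.3, and shares in the same way with the summed mitochondrial counts as library size. Limma-voom (limma 3.58.1), DESeq2 1.42.0, other scalings, filters, TPM with a pseudocount of 1 or 0.1 and leaving out each library were alternatives, and the fits were tested on simulated data. CPM are expected counts scaled to the total of each library. Nuclear copies were matched among GENCODE vM21 transcripts (at least 95% identity over at least 200 bases), a comparison added after the data were seen.

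All 13 protein and both rRNA genes, the 5 tRNA genes with the highest mean CPM and, in each list, the 2 genes with the smallest p are named, and other genes named were picked after their values were seen. The members and lists were chosen with earlier results of these data known. Without molecular identifiers, counts may include PCR duplicates. Each library is 1 mouse, so p-values measure the spread between mice. For shares, that spread is drawn largely from nuclear genes scaled by the mitochondrial total.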

Additional observations from a re-analysis of the deposited data

Results flagged for a closer look

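Within the 4 young mice, 5 of 44 values had 1 mouse farther from the others than Dixon's critical value allows, where chance gives 2.2 of 44. Young mouse 23C accounted for 4 of them. Its mt-Rnr1 level was 1710 CPM against 307 to 391 in the other young mice (gap over range 0.940), and its mt-Rnr1 share was 8.06% of the mitochondrial counts against 1.41% to 1.53% (0.982). Its mt-Co1 share was 9.29% against 14.7% to 15.8% (0.833), and its tRNA genes took 0.227% against 0.397% to 0.432% (0.831). In young mouse 18C the mt-Nd3 share was 0.442% against 0.345% to 0.353% (0.920). The 3 old mice were too few for this rule, so the gap between 2posI and 3posI was not tested.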

How the results depend on the processing

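The number of mitochondrial genes called for their level was 0 with edgeR and 1, mt-Nd4l, with limma-voom (adjusted p = 0.0487), DESeq2 (0.000193), library totals alone (0.0495), no filter on counts (0.0277) and limma-trend on log2(TPM + 1) (0.0438) or log2(TPM + 0.1) (0.0351). It was 0 with each library left out. For the share the count was 0, and 0 to 2 with each library left out, 2 being reached without 2posI (mt-Nd6, log2 ratio 0.81, adjusted p = 0.0280, and mt-Nd4l, -0.69, adjusted p = 0.0387, edgeR), when 2209 of all genes were called. Among the 135 genes of the nuclear lists, the number called went from 0 with edgeR to 8 with DESeq2. With each library left out, the log2 ratio of the level ran from -0.19 to 0.32 for mt-Co2, from -0.43 to 0.58 for mt-Atp6 and from -0.23 to 0.30 for mt-Co3, reversing without 2posI, and the cause was not tested. Of 640 values of single genes under alternatives, 629 kept their direction and side of the threshold or stayed within 1 SE of 0, 3 reversed and 8 became called. Among the 629, 41 changed sign while within 1 SE of 0 in both fits. Over all genes the level fit called 141, against 1390 with DESeq2, 286 with no filter, 65, 72 and 16 on the TPM scale, and 1 to 155 with a library left out. The share fit called 47, against 146 and 163 with other denominators, 30 with limma-voom and 12 to 2209 with a library left out. The ratio of the old to the young mitochondrial share, 0.900, was 0.933 for TPM, 0.979 for protein genes alone and 0.903 with nuclear copies. No paired analysis was possible because the young and old libraries come from different mice, whose labels give animal codes and no numbers that pair them (replicate numbers were given in accession order). Reads shared with nuclear copies, the missing strand and the 9 tRNA genes with under 10 counts limit what can be read, as do 3 old mice that differ in their total.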
